A study of Arabidopsis thaliana with 9 samples.

Results

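Immune genes of the plant, from pattern receptors at the cell surface to an intracellular receptor, were followed in the leaf transcriptome of *Arabidopsis thaliana* under prolonged warming and heat shock. They were taken by locus from the gene count table: *FLS2*, *EFR*, *BAK1*, *BIK1*, *RBOHD*, *RBOHF*, *MPK3*, *MPK6*, *FRK1* and *SNC1*, which are 10 of 33602 identifiers. Of the 10 genes, 9 had enough counts to be tested together with 18952 genes in all, and the last, *FRK1*, lay below the filter of 10 counts in at least 3 libraries.

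All plants were wild type of the ecotype Col-0 in soil under 16 h of light and 8 h of darkness. Plants under prolonged warming (PW) spent the last 7 days, from day 23 after sowing, at a day temperature of 28 °C and a night temperature of 23 °C. Plants under heat shock (HS) were exposed to 38 °C for 6 h at day 30, and control plants (CK) stayed at 23 °C in the light and 18 °C in the dark for all 30 days. Each treatment had 3 libraries, named here by treatment and replicate, and PW and HS differ from each other in temperature and in duration at once, so that these cannot be told apart. No pathogen or elicitor was applied in any group, so the levels are those of uninfected leaves.

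Pattern-triggered immunity begins at the plasma membrane. FLS2 binds bacterial flagellin and EFR binds the bacterial elongation factor EF-Tu. Both recruit the co-receptor kinase BAK1 and act through the cytoplasmic kinase BIK1, which phosphorylates the NADPH oxidase RBOHD and so starts a burst of reactive oxygen. RBOHF is a second oxidase, and MPK3 and MPK6 are the mitogen-activated protein kinases that carry the signal onward. *FRK1* is a receptor-like kinase gene whose transcript is a standard readout of flagellin perception. SNC1 is an intracellular receptor of the TIR-NBS-LRR class, known for an overactive allele whose autoimmunity is suppressed at elevated temperature.

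Libraries held from 11966328 to 12781806 counts in PW, from 11660970 to 13734801 in HS and from 13772506 to 17768334 in CK. Levels are given as CPM, which are counts relative to the library total after scaling by TMM factors, which ranged from 0.812 to 1.22. HS replicate 3 stood apart from the other HS libraries, with correlations of 0.912 on the log2 CPM scale, against 0.987 between HS replicates 1 and 2. Pairs of PW libraries correlated at 0.935 to 0.965, below the 0.982 to 0.988 of CK pairs. The summed level of 5 leaf mesophyll markers was from 63179 to 77547 CPM in PW, from 28755 to 37798 CPM in HS and from 25800 to 32485 CPM in CK. That of 4 guard cell markers was from 49.6 to 90.2 CPM in PW, from 27.0 to 44.3 CPM in HS and from 37.2 to 39.9 CPM in CK, and that of 2 phloem markers from 87.7 to 250.3 CPM in PW, from 143.5 to 253.3 CPM in HS and from 113.1 to 140.3 CPM in CK. Of these, the mesophyll genes *RBCS1A*, *LHCB1.3*, *RCA* and *CA1* were called higher in PW vs CK (log2 fold changes of 1.255, 1.054, 1.972 and 2.085). *RCA* and *CA1* were also called higher in HS vs CK (1.661 and 1.382). The guard cell genes *MYB60* and *KAT1* were called higher in PW vs CK (1.64 and 1.01), while *FAMA* (0.386) and *HT1* (-0.030) were not. In HS vs CK, *FAMA* was lower by less than 2-fold, at -0.645 (edgeR's adjusted p = 0.0434). The phloem gene *APL* was called higher in both heat treatments against CK (1.45 for PW and 1.07 for HS), and *SUC2* in neither. The summed level of 4 root markers was from 0.963 to 54.3 CPM in PW, from 0.248 to 14.9 CPM in HS and from 15.9 to 30.3 CPM in CK, and nearly all of it was *BGLU23* in the libraries where it was high, with the markers *CASP1* and *TIP2;3* at or near 0. The root marker *CASP2*, with at most 9 counts in a library, had 0.513, 0.771 and 0.927 CPM in PW. It had 0.543, 0.248 and 0.149 CPM in HS, and 0.0925, 0 and 0 CPM in CK. The summed level of 4 flower markers ranged from 1.06 to 20.8 CPM in PW, from 0.330 to 4.69 CPM in HS and from 1.03 to 25.9 CPM in CK, and that of 3 heat response genes from 11.3 to 18.3 CPM in PW, from 512 to 1440 CPM in HS and from 13.8 to 18.0 CPM in CK. Most of the HS sum was *HSP21*, at 1300, 1407 and 457 CPM. In HS vs CK *HSP101* was called higher at a log2 fold change of 1.60, and *HSFA2* was not called, at 0.22 (edgeR's adjusted p = 0.686). The part of these tissue markers in the results below was not tested, and in whole leaves fewer cells of a type and less RNA per cell cannot be told apart. Where TMM was left out, the median log2 fold change of all tested genes moved to -0.15 in HS vs CK, -0.45 in PW vs CK and -0.26 in PW vs HS, from within 0.04 of zero, and the share of called genes that were higher became 39.7%, 21.7% and 27.3%, in place of 51.9%, 53.7% and 47.8%. All fold changes below are relative to the TMM scale.

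The 4 upstream windows printed next are those of the oxidase, the kinases and the readout gene on which the results turn. Each holds the 250 bases before the annotated start of the gene, read from TAIR10.1 (the submitters' build was TAIR10, and the count table gives no coordinates) and written from 5′ to 3′ on the strand of the gene. Capitals mark the W box, the core site of WRKY transcription factors, searched as TTGACC or TTGACT on both strands, and the heat shock element GAANNTTC, searched likewise. The windows lie at chr5:19396791-19397040 (plus strand) for *RBOHD*, chr3:16756321-16756570 (plus strand) for *MPK3*, chr2:18137996-18138245 (plus strand) for *MPK6* and chr2:8329945-8330194 (minus strand) for *FRK1*.
RBOHD window: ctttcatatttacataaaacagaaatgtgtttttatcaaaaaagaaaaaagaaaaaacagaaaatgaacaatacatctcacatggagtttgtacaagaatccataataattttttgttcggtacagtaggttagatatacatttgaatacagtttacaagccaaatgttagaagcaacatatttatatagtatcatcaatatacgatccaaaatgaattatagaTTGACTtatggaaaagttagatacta
MPK3 window: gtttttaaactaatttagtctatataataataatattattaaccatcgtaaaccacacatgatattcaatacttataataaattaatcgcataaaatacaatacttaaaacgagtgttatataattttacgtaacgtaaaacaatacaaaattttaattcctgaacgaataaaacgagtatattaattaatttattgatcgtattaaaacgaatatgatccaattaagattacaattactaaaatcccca
MPK6 window: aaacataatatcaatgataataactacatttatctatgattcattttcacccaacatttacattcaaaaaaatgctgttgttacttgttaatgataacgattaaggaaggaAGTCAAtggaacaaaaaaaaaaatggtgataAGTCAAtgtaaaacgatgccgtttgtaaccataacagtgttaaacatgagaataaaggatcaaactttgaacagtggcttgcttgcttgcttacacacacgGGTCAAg
FRK1 window: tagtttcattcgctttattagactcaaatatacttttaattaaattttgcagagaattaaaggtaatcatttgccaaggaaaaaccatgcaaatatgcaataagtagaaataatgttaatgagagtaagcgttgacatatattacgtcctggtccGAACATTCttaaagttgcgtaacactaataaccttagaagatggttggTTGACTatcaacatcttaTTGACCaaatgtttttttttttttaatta
The *RBOHD* window had 1 W box, that of *MPK6* had 3 and that of *FRK1* had 2 and 1 heat shock element, while neither motif occurs in the *MPK3* window. Over the 10 genes, 6 windows held a W box (*BAK1*, *BIK1*, *RBOHD*, *MPK6*, *FRK1* and *SNC1*), against 28.4% of the windows of 27443 protein-coding nuclear genes. A heat shock element occurred in 2 of the 10 (*FRK1* and *SNC1*), against 9.55% of all windows. A match is a description of the letters and not a binding site. The group with a W box included *RBOHD*, which was down-regulated in PW and HS, as well as *MPK6* and *SNC1*, which passed the test in no comparison.

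Per length, the 10 genes spanned more than 2 orders of magnitude in control leaves. On a per-length scale (RPKM, the TMM-scaled CPM divided by exon length), *MPK3* was the highest in CK at 57.3 ± 1.04 (SD, n = 3). *SNC1* followed at 34.5 ± 3.99, and then *RBOHD* at 24.4 ± 0.0562 and *MPK6* at 23.6 ± 0.275. *BAK1* stood at 15.5 ± 1.21 RPKM, above *BIK1* at 5.93 ± 0.711 and *FLS2* at 5.39 ± 0.808, whose CK ranges overlapped and did not differ beyond their spread. *RBOHF* at 3.05 ± 0.592 RPKM and *EFR* at 1.77 ± 0.260 came next, and *FRK1* was the lowest at 0.328 ± 0.173. In PW and in HS the highest of the 10 by mean was *SNC1*, at 43.5 ± 13.4 RPKM in PW and 32.1 ± 7.53 RPKM in HS, and *MPK3* was at 36.8 ± 6.54 RPKM in PW and 18.2 ± 5.66 RPKM in HS. *SNC1* and *MPK3* overlapped in PW, where *MPK3* ranged from 31.7 to 44.2 RPKM and *SNC1* from 28.6 to 54.6 RPKM. *FRK1* stayed the lowest in every group.

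**Figure D1:**
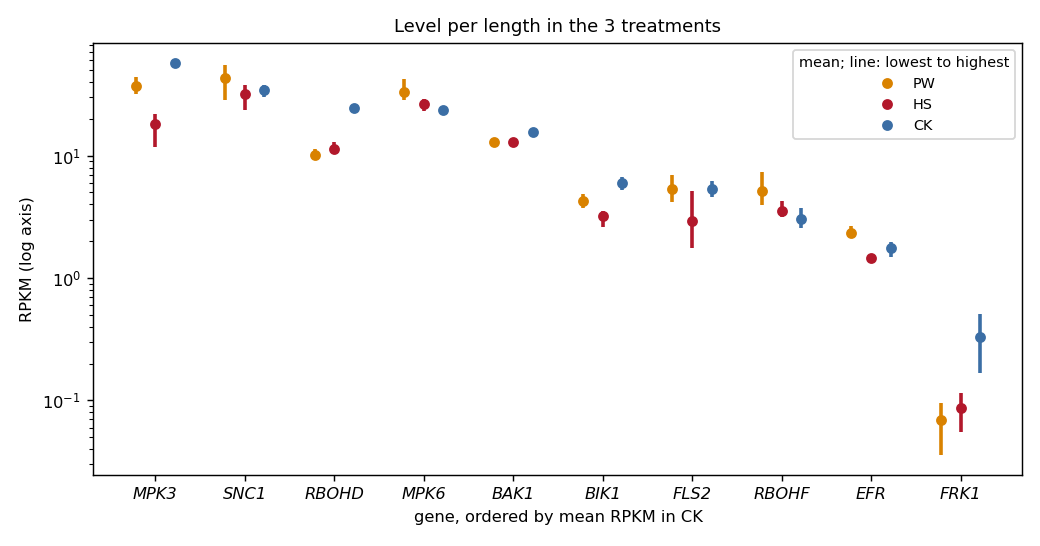
Level per length (RPKM, log axis) of the 10 genes in PW, HS and CK, ordered by the CK mean, with points at the mean and lines from the lowest to the highest of 3 libraries. *MPK3* leads in CK at 57.3 RPKM and *FRK1* is the lowest in every group, at 0.0690 RPKM in PW, 0.0873 RPKM in HS and 0.328 RPKM in CK.

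Under heat shock, 2 of the 9 tested genes were down-regulated against CK and none was up-regulated. These were *RBOHD* and *MPK3*, and a gene was called when edgeR's quasi-likelihood test gave a Benjamini-Hochberg adjusted p under 0.05 and a change of at least 2-fold. Of all 18952 tested genes, 21.8% were called in HS vs CK (11.3% higher and 10.5% lower). Counted in either direction, 2 of 9 is a share near the background, and for the lower direction alone the share to set beside 2 of 9 is 10.5%. Under prolonged warming, 1 of 9 was called against CK, *RBOHD*, which was down-regulated, beside 16.4% of all genes (8.82% higher and 7.60% lower). Between the heat treatments, 1 of 9 was called in PW vs HS, *MPK3*, which was higher in PW, beside 14.5% of all genes (6.92% higher and 7.57% lower). By the adjusted p alone, 3 of 9 passed in HS vs CK (39.2% of all genes), 1 under PW against CK (31.0%) and 2 between PW and HS (26.7%).

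The median log2 fold change of the 9 genes was -0.28 in HS vs CK, 0.00 in PW vs CK and 0.44 in PW vs HS, beside 0.03, -0.04 and -0.02 over all tested genes. In HS vs CK, 4 of 9 genes had every HS library below every CK library, beside 28.2% of all genes, and none had every HS library above, beside 29.7%. In PW vs CK, 4 of 9 had every PW library below every CK library (27.9% of all genes) and 3 had every PW library above (25.3%). In PW vs HS, 3 of 9 had every PW library above every HS library, beside 17.3% of all genes, and none had every PW library below, beside 21.1%. The comparisons of PW and of HS with CK share the CK libraries and are not independent.

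**Figure D2:**
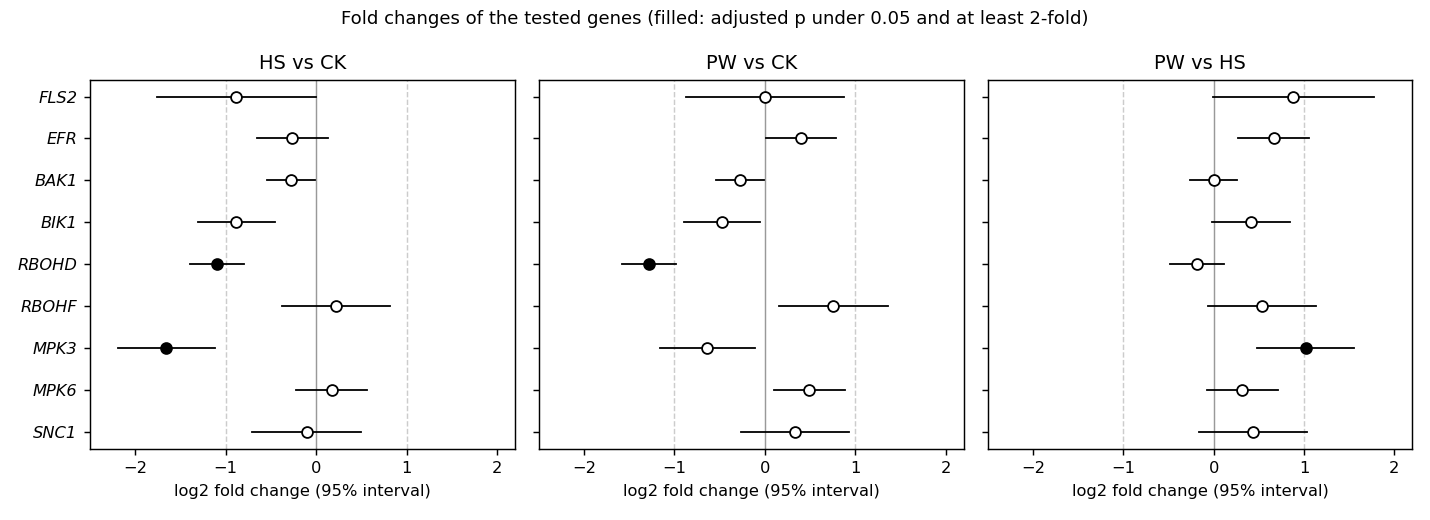
Log2 fold change of the 9 tested genes with its 95% interval, in panels for HS vs CK, for PW vs CK and for PW vs HS, with filled points for called genes and dashed lines at a 2-fold change. *RBOHD* is called in both comparisons with CK (-1.10 and -1.28), and *MPK3* is called in HS vs CK (-1.66) and PW vs HS (1.02).

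The flagellin receptor *FLS2* (AT5G46330, chr5:18791575-18795908, plus strand, 3 exons) had 20.9, 29.8 and 17.9 CPM in PW, 7.92, 7.51 and 21.8 CPM in HS, and 19.5, 26.4 and 22.8 CPM in CK. HS replicates 1 and 2 lay below all other libraries, and HS replicate 3 lay among those of PW and CK, so the groups overlapped. The log2 fold change was -0.88 ± 0.39 (SE) in HS vs CK (edgeR's adjusted p = 0.102) and 0.88 ± 0.39 in PW vs HS (edgeR's adjusted p = 0.13). Both values rested on HS replicate 3. Without it, *FLS2* was called in HS vs CK at -1.56 (edgeR's adjusted p = 0.000821) and in PW vs HS at 1.56 (edgeR's adjusted p = 0.00139). In PW vs CK the log2 fold change was 0.00, with a 95% interval from -0.88 to 0.88 that includes changes of nearly 2-fold both ways.

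The EF-Tu receptor *EFR* (AT5G20480, chr5:6921509-6925901, plus strand, 3 exons) was among the lowest of the set, with 9.31, 9.34 and 11.4 CPM in PW, 6.44, 6.19 and 6.33 CPM in HS, and 6.34, 8.44 and 8.06 CPM in CK. Every PW library was above every HS and every CK library, while HS and CK overlapped. *EFR* passed the adjusted p in PW vs HS but not the 2-fold threshold, with a log2 fold change of 0.67 ± 0.18 (edgeR's adjusted p = 0.0225). Against CK it was 0.40 ± 0.17 in PW (edgeR's adjusted p = 0.111) and -0.27 ± 0.17 in HS (edgeR's adjusted p = 0.248), and the PW value turned to -0.02 without TMM. The 3 HS libraries of *EFR* had an SD of 0.128 CPM with replicate 3 included, which was the highest HS library of *FLS2*.

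The co-receptor gene *BAK1* (AT4G33430, chr4:16086311-16090832, minus strand, up to 12 exons) varied little. It had 34.2, 38.1 and 38.3 CPM in PW, 35.7, 35.5 and 39.4 CPM in HS, and 41.0, 47.9 and 45.2 CPM in CK. All 6 libraries of the heat treatments lay below all 3 CK libraries, and PW and HS covered the same range. Against CK, *BAK1* differed by a log2 fold change of -0.28 ± 0.12 in PW (edgeR's adjusted p = 0.101) and the same in HS (edgeR's adjusted p = 0.0858). In PW vs HS it was 0.00, with a 95% interval from -0.26 to 0.26. Below 2-fold, *BAK1* passed the adjusted p in HS vs CK under 2 other settings. These were DESeq2 (-0.30, DESeq2's adjusted p = 0.041) and library size alone (-0.45, edgeR's adjusted p = 0.0369).

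The receptor-associated kinase gene *BIK1* (AT2G39660, chr2:16531527-16533986, plus strand, up to 6 exons) had 8.37, 9.73 and 7.42 CPM in PW, 5.20, 6.93 and 7.08 CPM in HS, and 13.2, 11.8 and 10.4 CPM in CK. The groups did not overlap in these libraries, with HS lowest, PW between and CK highest. *BIK1* passed the adjusted p in HS vs CK at a log2 fold change of -0.88 ± 0.19 (edgeR's adjusted p = 0.00629), which is 1.84-fold lower and short of the 2-fold threshold. It passed that threshold only on library size alone, at -1.05 (edgeR's adjusted p = 0.00937). In PW vs CK it was -0.47 ± 0.19 (edgeR's adjusted p = 0.0845) and in PW vs HS 0.41 ± 0.19 (edgeR's adjusted p = 0.143).

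**Figure D3:**
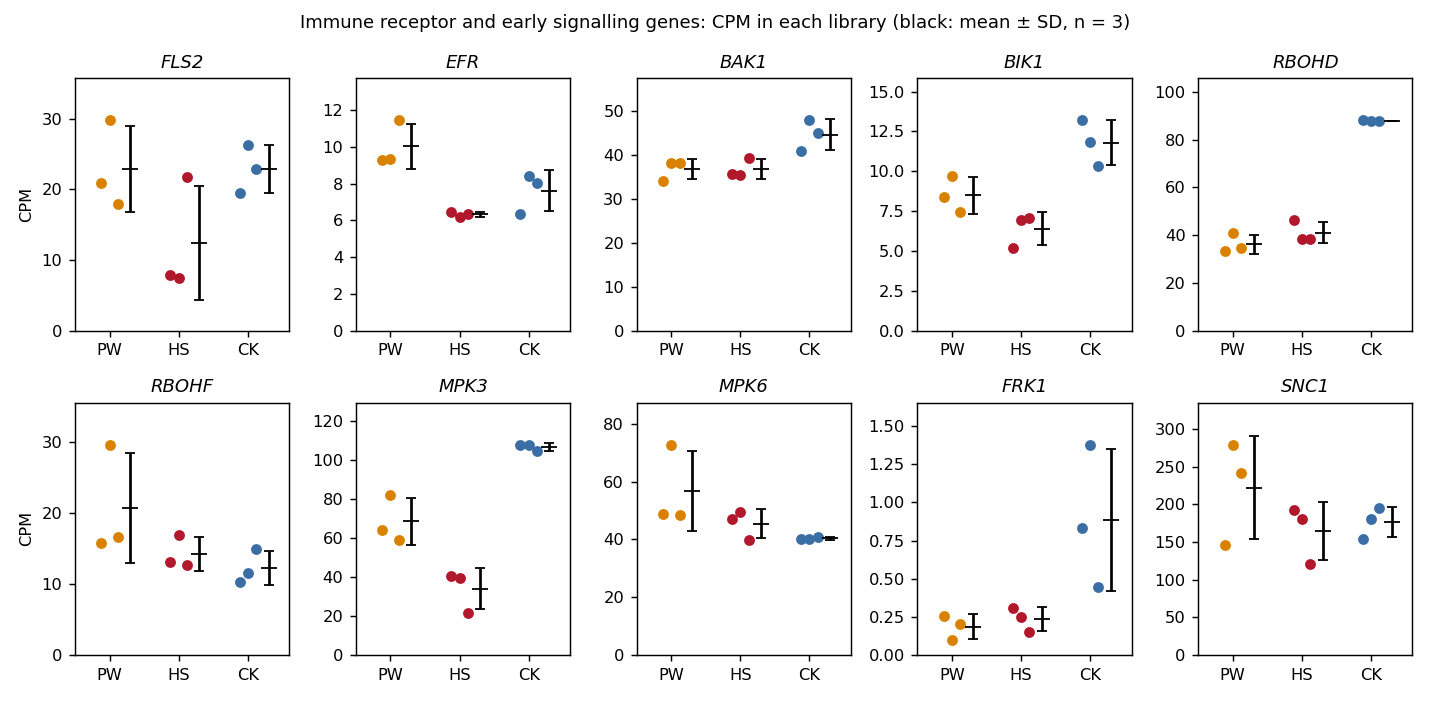
CPM of each of the 10 genes in each library (points) with the mean ± SD of 3 libraries (black), for PW, HS and CK, each panel with its own axis from 0. The CK libraries of *RBOHD* (87.7 to 88.1 CPM) and *MPK3* (104 to 108 CPM) lie above all PW and HS libraries, and HS replicate 3 of *FLS2* (21.8 CPM) lies apart from the other HS libraries.

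*RBOHD* (AT5G47910, chr5:19397041-19402061, plus strand, 8 exons), the oxidase of the pattern-triggered burst, was down-regulated in both heat treatments. It had 33.5, 40.7 and 34.4 CPM in PW, 46.3, 38.4 and 38.6 CPM in HS, and 88.1, 87.7 and 87.8 CPM in CK. Every PW and HS library lay far below every CK library, and PW and HS overlapped each other. *RBOHD* was 2.43-fold lower in PW than in CK, a log2 fold change of -1.28 ± 0.13 (edgeR's adjusted p = 0.000355), and 2.14-fold lower in HS than in CK, at -1.10 ± 0.13 (edgeR's adjusted p = 0.000464). These calls held in each fit that left out 1 library, with values from -1.37 to -1.23 in PW vs CK and from -1.19 to -1.04 in HS vs CK. Between PW and HS the log2 fold change was -0.18 ± 0.13 (edgeR's adjusted p = 0.339), with a 95% interval from -0.48 to 0.12. The window upstream of *RBOHD*, printed above, holds its single W box close to the annotated start.

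*RBOHF* (AT1G64060, chr1:23769774-23776984, plus strand, 14 exons), the oxidase with which RBOHD shares many functions, took another course. It had 15.7, 29.6 and 16.6 CPM in PW, 13.1, 16.9 and 12.6 CPM in HS, and 10.3, 11.5 and 14.8 CPM in CK. All PW libraries were above all CK libraries, with PW replicate 2 far above the others, and HS overlapped both groups. The log2 fold change was 0.76 ± 0.27 in PW vs CK (edgeR's adjusted p = 0.0567), and 0.41 without PW replicate 2 (edgeR's adjusted p = 0.184). It was 0.22 ± 0.27 in HS vs CK (edgeR's adjusted p = 0.531) and 0.54 ± 0.27 in PW vs HS (edgeR's adjusted p = 0.166), the last being 0.19 without PW replicate 2 (edgeR's adjusted p = 0.539).

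Set against each other within a library, where the scaling cancels, RPKM of *RBOHD* over *RBOHF* was 2.36, 1.53 and 2.30 in PW, 3.91, 2.51 and 3.40 in HS, and 9.51, 8.47 and 6.56 in CK. The ratio was below 4 in all libraries of the heat treatments and at least 6.56 in all of CK. This ratio and the next were chosen after the levels were seen and are descriptions with no test.

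*MPK3* (AT3G45640, chr3:16756571-16758874, plus strand, 6 exons) had the largest fitted difference of the 9 tested genes. It had 64.1, 82.1 and 58.9 CPM in PW, 40.4, 39.4 and 21.7 CPM in HS, and 108, 108 and 104 CPM in CK. The groups did not overlap, with HS lowest and CK highest, and HS replicate 3 was the lowest library of all. *MPK3* was 3.15-fold lower in HS than in CK, at a log2 fold change of -1.66 ± 0.24 (edgeR's adjusted p = 0.00105), and -1.42 without HS replicate 3 (edgeR's adjusted p = 0.000241). In PW vs CK it was -0.64 ± 0.23 (edgeR's adjusted p = 0.0653), and on library size alone -1.06 (edgeR's adjusted p = 0.00326). In PW vs HS *MPK3* was 2.02-fold higher in PW, at 1.02 ± 0.24 (edgeR's adjusted p = 0.0134). This last value stood at the threshold and fell under 2-fold without HS replicate 3 (0.78, edgeR's adjusted p = 0.00664), without PW replicate 2 (0.87, edgeR's adjusted p = 0.0396) and on library size alone (0.81, edgeR's adjusted p = 0.0143).

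*MPK6* (AT2G43790, chr2:18138246-18140988, plus strand, up to 6 exons), the kinase that shares most known substrates with MPK3, passed the test in no comparison. It had 49.0, 72.8 and 48.6 CPM in PW, 47.2, 49.7 and 39.8 CPM in HS, and 40.3, 40.0 and 40.9 CPM in CK. All PW libraries were above all CK libraries, PW replicate 2 was the highest of all, and HS overlapped both. The log2 fold change was 0.49 ± 0.17 in PW vs CK (edgeR's adjusted p = 0.0604), 0.17 ± 0.17 in HS vs CK (edgeR's adjusted p = 0.458) and 0.32 ± 0.18 in PW vs HS (edgeR's adjusted p = 0.209), and the HS vs CK value turned to -0.02 on library size alone. Without PW replicate 2 it was 0.27 in PW vs CK (edgeR's adjusted p = 0.154) and 0.10 in PW vs HS (edgeR's adjusted p = 0.597). Without PW replicate 3 the PW vs CK value was 0.59. Over the fits that left out 1 library, edgeR's adjusted p ran from 0.0388 to 0.154 in PW vs CK.

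RPKM of *MPK3* over *MPK6* was 1.21, 1.04 and 1.12 in PW, 0.789, 0.731 and 0.503 in HS, and 2.46, 2.48 and 2.35 in CK. *MPK3* was therefore above *MPK6* per length in every CK and PW library and below it in every HS library. For the receptors *FLS2* and *EFR*, the ratio was 2.28, 3.23 and 1.59 in PW, 1.25, 1.23 and 3.48 in HS, and 3.11, 3.16 and 2.87 in CK. The PW and HS ranges of that ratio both enclosed the CK range, so that it did not separate the treatments.

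**Figure D4:**
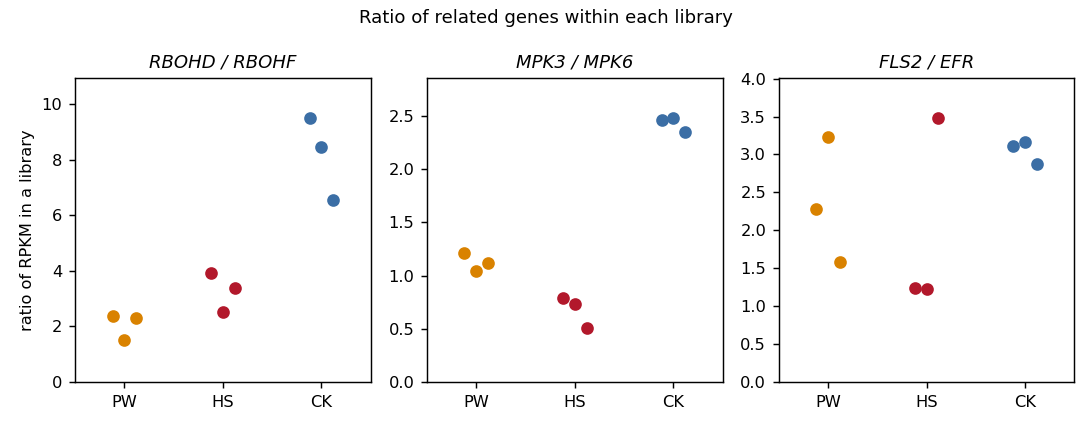
Ratio of RPKM within each library for *RBOHD* over *RBOHF*, *MPK3* over *MPK6* and *FLS2* over *EFR*, with 3 libraries each of PW, HS and CK and axes from 0. The first ratio is below 4 in PW and HS and at least 6.56 in CK, the second is from 1.04 to 1.21 for PW, 0.503 to 0.789 for HS and 2.35 to 2.48 in CK, and the third overlaps between treatments.

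*FRK1* (AT2G19190, chr2:8326049-8329944, minus strand, up to 13 exons) was hardly detected, with 3, 1 and 2 counts in PW, 4, 3 and 2 in HS, and 18, 24 and 7 in CK. Every library of PW and HS held fewer counts than every CK library. Scaled to the libraries, the summed counts gave a ratio of 0.211 in PW over CK (95% interval 0.0737 to 0.492, exact conditional binomial), 0.261 in HS over CK (0.113 to 0.538) and 0.806 in PW over HS (0.236 to 2.54), where the intervals cover counting error only. An exact two-sided permutation test over the libraries gave p = 0.1 in PW vs CK and in HS vs CK, the smallest value that 3 against 3 libraries allow, and p = 0.6 in PW vs HS. With no filter beyond 1 count, edgeR estimated -2.20 ± 0.68 for *FRK1* on the log2 scale in PW vs CK (adjusted p = 0.0418 over 24476 genes, called) and -1.89 ± 0.65 in HS vs CK (adjusted p = 0.0501, not called). The upstream window of *FRK1*, printed above, is the only one of the 4 that holds both motifs.

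*SNC1* (AT4G16890, chr4:9500271-9505972, minus strand, up to 7 exons) was the most abundant of the 10 genes in CPM. It had 146, 279 and 241 CPM in PW, 192, 181 and 120 CPM in HS, and 155, 181 and 195 CPM in CK. The groups overlapped, with the 2 highest libraries in PW and the lowest in HS. The log2 fold change was 0.33 ± 0.27 in PW vs CK (edgeR's adjusted p = 0.373), -0.10 ± 0.27 in HS vs CK (edgeR's adjusted p = 0.777) and 0.44 ± 0.27 in PW vs HS (edgeR's adjusted p = 0.258). Its sign was not stable, since PW vs CK became -0.11 on library size alone and HS vs CK became 0.08 without HS replicate 3. *SNC1* lies in a cluster of near-identical receptor genes, and how reads with several matches were counted is not given in the sources used here, so its counts are uncertain.

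*FLS2*, *EFR*, *BAK1*, *MPK3*, *MPK6* and *FRK1* each overlap at least 1 annotated gene on the other strand. The use of strand in counting is not given in the sources used here, so reads of these genes and of their antisense neighbours may not have been separated. *BIK1*, *RBOHD*, *RBOHF* and *SNC1* overlap no annotated gene.

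The genes with the pattern most like each of the 10 were taken as the 3 tested genes of at least 1 CPM on average with the highest Pearson correlation of log2 CPM over the 9 libraries. These correlations ran from 0.942 to 0.988 and describe libraries that share their 3 treatments. For *RBOHD* they were AT5G56140 (0.987), the calcium ATPase gene *ACA1* (0.982) and *VCS* (0.980), a component of mRNA decapping. *ACA1* averaged 25.6 CPM in PW, 30.6 CPM in HS and 78.6 CPM in CK, which is the order of *RBOHD*. For *MPK3* they were the chlorophyllase gene *CLH1* (0.985), the metallothionein gene *MT1C* (0.984) and *SUN1* (0.982), which encodes a protein of the nuclear envelope. *CLH1* averaged 139 CPM in PW, 80.0 CPM in HS and 180 CPM in CK. *RBOHF* and *MPK6* were like each other, with a correlation of 0.94 over the 9 libraries, and shared *SRS4* among their 3 nearest genes. After the mean of each treatment was taken out, their correlation was 0.87, and both were highest in PW replicate 2.

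The wider pathway was described with 115 further genes in 6 lists, of which 97 were tested. In HS vs CK, 2 of these were up-regulated and 29 down-regulated, and their median log2 fold change was -0.51, beside 0.03 over all genes. In PW vs CK, 2 were up-regulated and 21 down-regulated, with a median of -0.39 beside -0.04. In PW vs HS, 5 were higher and 2 lower in PW, with a median of 0.07 beside -0.02. *MPK11*, *CYP81F2* and *MLO12* would not have passed the filter without their CK libraries and so had to be low elsewhere, and without these 3 genes the number down-regulated against CK was 26 of 94 by HS and 19 by PW. The share of these genes that were lower can be read beside 10.5%, 7.60% and 7.57% of all genes in the 3 comparisons. The lists were chosen with earlier results of these data known, so this comparison is a description and not a test. By rule, the called gene with the largest rise and the one with the largest fall in each list are named with their values, and other called genes named here were chosen after their values were seen. In PW vs CK the count of called pathway genes was lowest without CK replicate 1, at 15, and in PW vs HS it was 11 without PW replicate 1 and 11 without HS replicate 3. Over all genes, calls in PW vs CK fell from 3112 to 2378, 2477 and 2383 without CK replicates 1, 2 and 3. The fall over all genes was therefore not particular to CK replicate 1, which does not settle the pathway count.

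Among 20 pattern receptors and partners, all tested, 5 were down-regulated in HS vs CK, and 1 was up-regulated and 6 down-regulated in PW vs CK. *WAK1*, a wall-associated kinase gene, fell most in both, to 74.0 ± 33.6 CPM in PW and 87.8 ± 4.55 CPM in HS, against 389 ± 69.5 CPM in CK, with log2 fold changes of -2.39 (edgeR's adjusted p = 0.000882) and -2.15 (edgeR's adjusted p = 0.00102). *SOBIR1*, the adaptor kinase of receptor-like proteins, also fell in both, at -1.42 in PW vs CK and -1.87 in HS vs CK. *LYK4*, a LysM receptor kinase gene of chitin perception, moved in opposite directions, with 16.2 ± 7.73 CPM in PW, 2.30 ± 0.884 CPM in HS and 6.60 ± 1.52 CPM in CK. It rose by 1.29 in PW vs CK (edgeR's adjusted p = 0.0272), fell by 1.52 in HS vs CK (edgeR's adjusted p = 0.0152) and was 2.81 higher in PW vs HS on the log2 scale (edgeR's adjusted p = 0.00152). *RLP30*, a receptor-like protein gene, was lower in PW than in HS, at 1.17 ± 0.987 CPM in PW and 5.31 ± 3.73 CPM in HS. Next to *BAK1*, which was called in no comparison, its close relative *BKK1* was down-regulated in PW vs CK at a log2 fold change of -1.50 (edgeR's adjusted p = 0.000315). In HS vs CK *BKK1* passed the adjusted p but fell just short of 2-fold, at -0.996 (edgeR's adjusted p = 0.00111), with means of 18.6 CPM in PW, 26.4 CPM in HS and 52.6 CPM in CK.

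Of 18 receptor-proximal kinases, G proteins and ubiquitin ligases, 4 were down-regulated by HS and 3 by PW, each against CK, with medians of -0.47 and -0.30. The ligase genes *PUB22*, *PUB23* and *PUB24*, which dampen pattern-triggered responses, were all down-regulated in HS vs CK, at -2.99, -1.67 and -1.56. *PUB23* (-1.76, edgeR's adjusted p = 0.0224) and *PUB24* (-1.43, edgeR's adjusted p = 0.00682) were down-regulated in PW vs CK too, while *PUB22* was at 0.48 (edgeR's adjusted p = 0.685). The other 4 *PUB* genes of the list were called in no comparison, and *PUB13* passed the adjusted p in HS vs CK below 2-fold, at -0.72 (edgeR's adjusted p = 0.00383). Below 2-fold in the other direction, *PUB26* was higher in PW vs CK, at 0.815 (edgeR's adjusted p = 0.0149). *PUB13*, *PUB25* and *PUB26* were likewise higher in PW vs HS, at 0.591, 0.854 and 0.845 (edgeR's adjusted p = 0.0135, 0.0148 and 0.0155). *PUB22* was at low counts, with 0.165 ± 0.286 CPM in HS and 1.31 ± 0.908 CPM in CK, and was higher in PW than in HS at 1.85 ± 0.388 CPM in PW (edgeR's adjusted p = 0.0345). The largest fall in PW vs CK was that of the kinase gene AT3G09830, at 9.44 ± 2.04 CPM in PW and 33.6 CPM in CK (edgeR's adjusted p = 0.000609).

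Of 15 genes of the oxidative burst and calcium signalling, 7 were tested. Of the tested genes, 2 were down-regulated in HS vs CK, 1 was down-regulated in PW vs CK and 1 was higher in PW vs HS. The 8 that fell below the filter included the oxidase genes *RBOHA*, *RBOHB*, *RBOHC*, *RBOHH* and *RBOHJ*. The calcium-dependent kinase gene *CPK5*, whose product phosphorylates RBOHD, was down-regulated in HS vs CK and higher in PW than in HS, with 69.7 ± 7.68 CPM in PW, 33.5 ± 2.11 CPM in HS and 106 ± 3.88 CPM in CK. Fitted log2 fold changes of *CPK5* were -1.66 in HS vs CK (edgeR's adjusted p = 8.3e-05) and 1.06 in PW vs HS (edgeR's adjusted p = 0.000769). In PW vs CK *CPK5* passed the adjusted p below 2-fold, at -0.60 (edgeR's adjusted p = 0.00776). *CPK6* did so in PW vs CK (-0.943) and in HS vs CK (-0.627). In PW vs HS 3 genes did so, with *CPK11* (0.452) higher and *CNGC4* (-0.925) and AT1G11960 (-0.789) lower. *CPK4* was down-regulated in both comparisons with CK, at -1.04 in PW vs CK and -1.18 in HS vs CK.

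Of 16 genes of the MAP kinase cascade, all tested, 6 were down-regulated by HS and 4 by PW, each against CK, none was up-regulated, and none was called in PW vs HS, where 2 passed the adjusted p alone. Below 2-fold, 3 passed the adjusted p in HS vs CK, with *MAPKKK5* (0.795) and *SUMM2* (0.703) higher and *MKK5* (-0.544) lower. In PW vs CK 4 did so, with *MAPKKK5* (0.620) higher and *MEKK2* (-0.650), *MKK2* (-0.826) and *MKK5* (-0.608) lower. *MPK11*, a kinase close to MPK4 that is activated by flagellin, was nearly absent from the heat treatments, with 16 counts in PW, 4 in HS and 429 in CK over 3 libraries each. Without it, 5 of 15 were down-regulated by HS and 3 by PW. Its ratio of scaled counts was 0.0641 in PW over CK (95% interval 0.0363 to 0.105, counting error only) and 0.0133 in HS over CK (0.00360 to 0.0342). *MKK4*, which acts directly upstream of MPK3 and MPK6, was down-regulated in both, at 6.46 CPM in PW, 9.86 CPM in HS and 21.7 CPM in CK. *MKK9* was down-regulated as well, at 19.8 CPM in PW, 25.6 CPM in HS and 54.7 CPM in CK.

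Of 16 early outputs of pattern recognition, the class to which *FRK1* belongs, 8 were tested. *CYP81F2* and *MLO12* passed the filter only through CK, with at most 5 and 6 counts in a PW library, 1 and 2 in an HS library, and 34 and 19 in a CK library. Of the other 6, 5 were down-regulated in HS vs CK, with a median log2 fold change of -1.83, 1 was up-regulated and 3 down-regulated in PW vs CK, with a median of -0.68, and 1 was higher in PW vs HS, with a median of 0.84. *WRKY53*, a transcription factor gene, was at 1.95 ± 1.76 CPM in PW, 2.49 CPM in HS and 10.4 ± 1.71 CPM in CK, and its log2 fold change in PW vs CK was -2.39 (edgeR's adjusted p = 0.0107). *WRKY33*, whose product is a substrate of MPK3 and MPK6, fell to 23.0 CPM in PW and 15.2 CPM in HS, against 46.4 CPM in CK. *PHI-1* was at 0 in all HS libraries and at 2.98 ± 0.240 CPM in PW and 1.16 ± 0.393 CPM in CK. With a floor of 3 counts in each HS library, its level was at least 4.96-fold lower in HS than in CK, and in PW at least 12.7-fold higher than in HS. It was up-regulated in PW vs CK at a log2 fold change of 1.34 (edgeR's adjusted p = 0.0409).

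Of 30 intracellular receptors and regulators of SNC1, 28 were tested, with 2 up-regulated and 5 down-regulated in HS vs CK, none up-regulated and 3 down-regulated in PW vs CK, and medians of -0.34 and -0.01. *CPR1*, the F-box gene whose product targets SNC1 for degradation, was up-regulated in HS, with 49.3 ± 4.81 CPM in PW, 127 ± 11.4 CPM in HS and 40.8 ± 1.12 CPM in CK. Fitted log2 fold changes of *CPR1* were 1.64 in HS vs CK (edgeR's adjusted p = 8.9e-05) and -1.36 in PW vs HS (edgeR's adjusted p = 0.000253). *CPR1* did not pass in PW vs CK, at 0.27 (edgeR's adjusted p = 0.139). *RPP4*, a neighbour of *SNC1* in the same gene cluster and subject to the same doubt on its counts, was higher in PW than in HS, at 195 ± 70.7 CPM in PW and 78.6 ± 20.9 CPM in HS (edgeR's adjusted p = 0.0131). *NDR1*, which several intracellular receptors require, was down-regulated in both, at 10.3 CPM in PW, 7.10 CPM in HS and 20.9 CPM in CK. The helper receptor gene *ADR1-L2* fell most in PW vs CK, at 19.0 ± 2.41 CPM in PW and 54.5 ± 1.96 CPM in CK (edgeR's adjusted p = 0.00017).

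**Figure D5:**
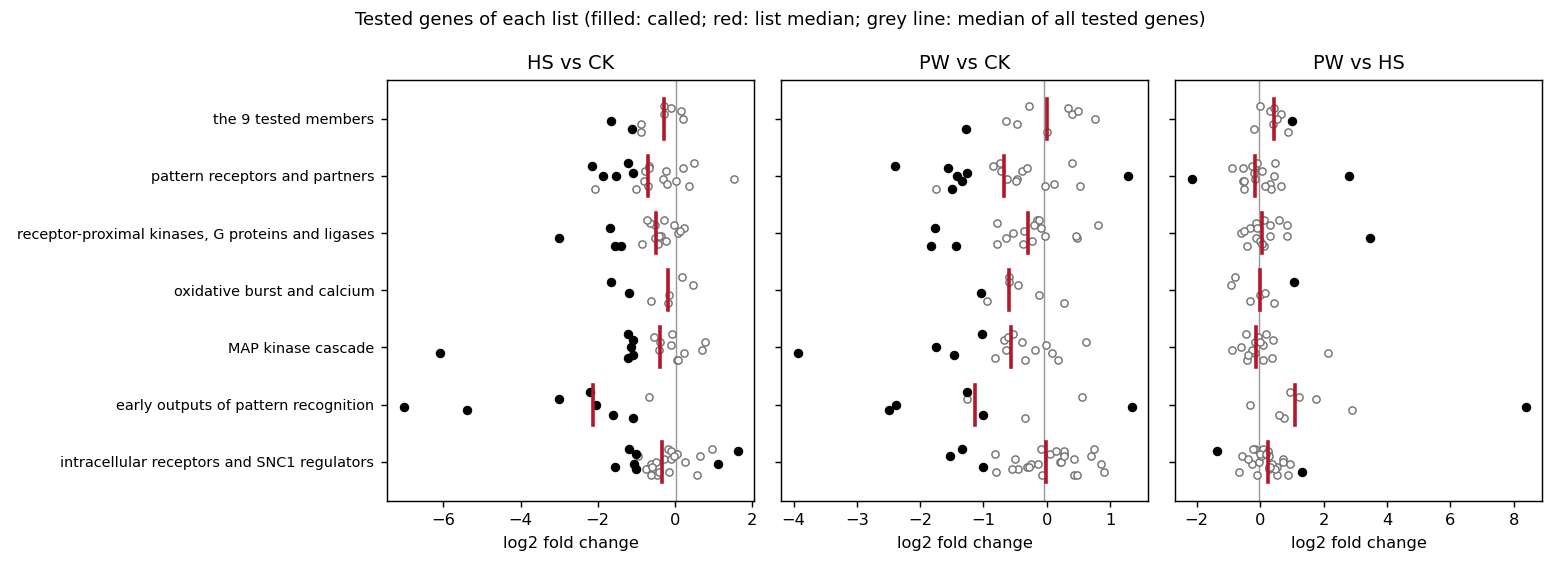
Log2 fold change of each tested gene of the 10-gene set and of the 6 wider lists, in panels for HS vs CK, for PW vs CK and for PW vs HS, with filled points for called genes, red bars at list medians and a grey line at the median of all tested genes. Called pathway genes are mostly lower in the comparisons with CK (29 of 31 for HS and 21 of 23 for PW), and the points and bars include the 3 genes that would miss the filter without CK. The fitted value of *PHI-1*, which is at 0 in HS, depends on the prior count and is no bound.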

How the data were processed

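The authors sequenced leaf RNA of 9 samples, aligned them with TopHat2 to the TAIR10 genome and deposited the raw count of each gene, not normalized. HTSeq 0.6.1 and CASAVA 1.8 are named in the submitters' processing notes. Of 33602 identifiers, 32835 were matched to the TAIR10.1 annotation by locus. The members and lists were chosen with earlier results of these data known.

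The 18952 genes that reached 10 counts in 3 or more libraries were fitted together in R 4.3.3 with edgeR 4.0.16 (TMM, quasi-likelihood test, 1 coefficient per treatment), with Benjamini-Hochberg adjustment across all of them. A call needed an adjusted p under 0.05 and a 2-fold change, the thresholds of the study, which used another package. SE and 95% intervals come from the same fit, the SE being derived from the log2 fold change and the test statistic. edgeR's p-values set a difference between treatments against the spread of these libraries within treatments, estimated with information shared across genes. For correlations, log2 CPM had a prior count of 2. Scripts were tested on simulated data, and figures were drawn with matplotlib 3.10.9. In the simulated HS vs CK, the adjusted p alone recovered 14 of 67 2-fold, 51 of 67 4-fold and 63 of 66 8-fold changes. It also passed 3 unchanged genes. A gene that was not called may therefore still differ by about 2-fold. All 10 genes are named, and of each other list the called gene of at least 1 CPM with the largest rise and fall per comparison. No promoter or protein table was used here, so upstream windows of 250 bases were read from the genome.

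Same-numbered PW and CK libraries deviated together from their group means, with correlations of 0.29, 0.31 and 0.14, though the labels name no shared batch. Those of HS and CK (-0.32, 0.20 and -0.10) and of PW and HS (-0.50, 0.45 and 0.08) did not. Alternatives were 2 other filters, DESeq2 1.42.0, library size alone, a fit of the 2 compared groups alone, removal of organelle genes, a replicate block, downsampling, the adjusted p alone and leaving out each library in turn. A block fitted to PW and CK only was added after the data were seen.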

Additional observations from a re-analysis of the deposited data

How the results depend on the processing

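Counts of called genes moved as follows. With the adjusted p alone, 52 in place of 31 pathway genes passed in HS vs CK, 42 in place of 23 in PW vs CK and 22 in place of 7 in PW vs HS, and 2 in place of 1 of the 10 genes in PW vs HS. On library size alone, 2 of the 10 genes (in place of 1) and 35 pathway genes were called in PW vs CK, and 0 of the 10 in PW vs HS. With no filter beyond 1 count, 2 of the 10 were called in PW vs CK, *FRK1* being the second, and with 10 counts in every library 4 pathway genes were called in PW vs HS. Leaving out 1 library gave 2 to 3 of the 10 genes in HS vs CK (3 without HS replicate 3), 1 in each fit of PW vs CK and 0 to 1 in PW vs HS (0 without PW replicate 2). It gave 24 to 32 pathway genes in HS vs CK, 15 to 23 in PW vs CK (15 without CK replicate 1) and 5 to 11 in PW vs HS (11 without PW replicate 1 or HS replicate 3). On library size alone the sign turned for *MPK6* in HS vs CK (-0.018), *EFR* in PW vs CK (-0.016) and *SNC1* in PW vs CK (-0.11). Without 1 library, *SNC1* in HS vs CK ranged from -0.227 to 0.079. With the replicate number as a block, 2, 1 and 1 of the 10 genes and 29, 22 and 5 pathway genes were called, in the order HS vs CK, then PW vs CK, then PW vs HS. With PW and CK only, 1 and 24 were called, so that the block changed no call among the 10 genes. Of the log2 fold changes of single genes, 219 values under other settings and 238 with 1 library left out kept their side of the call, 1 and 2 lost the call, 2 and 2 gained it, and 3 and 1 turned round in sign. *FLS2* in PW vs CK and *BAK1* in PW vs HS, both at 0.00, took either sign, from -0.234 to 0.148 and from -0.030 to 0.053 without 1 library, and -0.415 and -0.249 on library size alone. Depth limits *FRK1*, with at most 24 counts in a library, to counting intervals.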

Other observations

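In PW replicate 2, 8 of the 10 genes were above the mean of their treatment, with a median deviation of 0.24 on the log2 scale, beside 0.01 over all tested genes. In the other 8 libraries between 1 and 7 of the 10 genes were above it. The 10 genes together took 382, 591 and 475 CPM in PW, 395, 381 and 308 CPM in HS, and 482, 524 and 529 CPM in CK, with *SNC1* the largest share of each sum. The oxidase genes *RBOHB*, *RBOHH* and *RBOHJ* and the *SNC1* regulator gene *BON1* were listed at 0 in every library. So were AT4G25090 of the oxidative burst list and the early output genes *PROPEP2* and *PGIP1*. Whether a listed 0 reflects no transcript or reads that were not counted was not tested.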
